A study of Mus musculus with 2 samples.

Results

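The MYC, MAX and MXD network is a set of 10 genes here: the activators Myc, Mycn and Mycl1, their partner Max, and the antagonists Mxd1, Mxi1, Mxd3, Mxd4, Mnt and Mga. They were taken by gene name from the probe annotation of the arrays, with Mycl1 kept under the older name that the files use (RefSeq now calls it Mycl). All 10 had at least 1 probe, 19 probes in all, and every one of these probes was well above background and below saturation on both arrays. They stand among 17022 genes measured on both arrays.

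The arrays hold RNA of LSK cells, the bone marrow cells sorted as lineage-negative, Sca-1-positive and c-Kit-positive, in which haematopoietic stem cells and multipotent progenitors lie. There was 1 array of wild-type LSK cells and 1 array of PAD4-deficient (PAD4-/-) LSK cells, both from C57BL/6 mice. PAD4, the product of Padi4, is an enzyme that turns arginine into citrulline, on histones among other proteins. The kind of Padi4 allele, the number of mice, their age and their sex do not appear in the labels or protocols used here. With 1 array a group no difference has a replicate check and no test was possible. The errors below are scanner errors, an estimate given with each spot's signal, and say nothing of how mice vary. They were nearly the same for all but dim probes, with a median of 0.20 in log2 over all genes. To lie beyond the error is thus close to passing a fixed cut, and is not a precision measured for each gene. The comparison addresses which genes, Myc among them, differ in stem and progenitor cells that lack PAD4.

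MYC proteins are transcription factors that bind DNA only as a dimer with MAX, mostly at a short palindrome called the E-box, and raise the transcription of genes for ribosome assembly, nucleotide synthesis and cell division. The MXD proteins, MNT and MGA compete for the same partner and the same E-boxes; MXD proteins and MNT bring the SIN3 corepressor complex with its histone deacetylases. In blood, MYC favours the exit of stem cells from quiescence and their expansion as progenitors, and MXD proteins accompany the arrest of dividing cells as they mature.

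The E-box, CACGTG, reads the same on both strands, and it also stands in the promoters of some network genes. RefSeq promoter windows of build GRCm38.p6, each from 250 bases before to 50 bases after an annotated start, were given for 9 of the 10 members in 11 windows; the window of Myc is the missing one. Max, Mnt and Mxd4 had a CACGTG in their window. Over all genes with a window, 8.09% had one, and among measured genes with a window the share was 11.3%. The sites are shown with the E-box in capitals, because they place the motif of the network's own dimers at a partner and a pair of antagonists. Max lies at chr12:76962234-76962263 on the minus strand, Mnt at chr11:74830789-74830818 on the plus strand and Mxd4 at chr5:34187912-34187941 on the minus strand.
Max: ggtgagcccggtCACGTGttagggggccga
Mnt: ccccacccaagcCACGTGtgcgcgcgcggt
Mxd4: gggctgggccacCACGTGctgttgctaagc
The motif began 3 bases before the annotated start in Max, 123 bases before it in Mnt and 219 bases before it in Mxd4. A match is a description of the letters and shows no binding.

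Some facts on the arrays bear on every value. Padi4 kept between 21.2% and 24.2% of the wild-type level at its 3 probes on the PAD4-deficient array. The sort marker Kit had processed signals of 9339 and 9451, and Ly6a, which encodes Sca-1, had 2637 and 2312, in the order wild-type and PAD4-deficient. The 5 lineage markers measured on both arrays had signals between 38.6 and 378. The arrays also differed in sex-linked transcripts: the brightest Xist probe had 3.93 and 16255, and Ddx3y had 3455 and 1297, so genotype and this difference cannot be told apart. Of all probes, 63.9% and 64.1% were well above background. The 75th percentile of the signal, the scale of each array, was 814 and 786. Pairs of values below are processed signals in the same order. Differences are given as log2 of the signal over that percentile, PAD4-deficient minus wild-type, and the median over all genes was 0.02.

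By their brightest probes, the activators lay above all other members. All 3 activators passed 1.5-fold towards higher signal in PAD4-deficient cells, while no antagonist differed by 1.5-fold in either direction and 5 of the 6 lay below 0. Max, the partner of both sides, had -0.04. Among all measured genes the share past 1.5-fold was 2.88% upwards, 1.87% downwards and 4.75% in either direction. To lie within 1.5-fold, as the antagonists did, is thus what most genes do. Mycl1, the dimmest activator, fell below 1.5-fold with another background correction, as given below. No member was 2-fold lower, where 0.476% of all genes lay. A difference below 0 is common, found in 45% of all genes, which is the share to set beside the 5 of 6 antagonists.

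**Figure D1:**
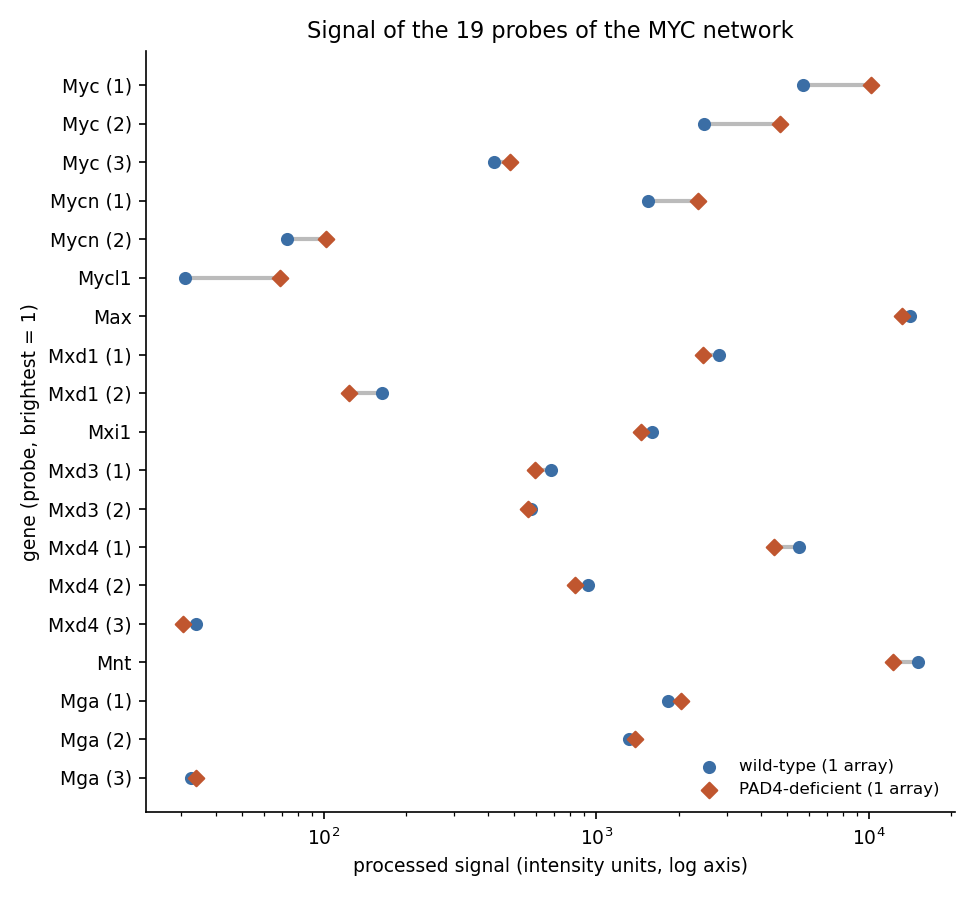
Processed signal (log axis, intensity units) of each of the 19 probes of the network on the wild-type array (circles) and the PAD4-deficient array (diamonds), with the probes of a gene numbered from the brightest. The diamonds lie to the right of the circles at all 6 activator probes and at the 3 Mga probes, and to the left at Max, Mxd1, Mxi1, Mxd3, Mxd4 and Mnt.

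Myc, the activator that most dividing blood progenitors use, had 3 probes. Its brightest probe (mm8 chromosome 15, 61819627 to 61819687) was printed in 10 spots. On the wild-type array these spots ranged from 5418 to 6169 with a median of 5742, and on the PAD4-deficient array from 9568 to 10829 with a median of 10052. The spots of the arrays did not overlap, and their SD on the log2 scale was 0.05 on each array. Among 245 probes printed in more than 1 spot the median SD was 0.08 on each array, so a modest shift is enough to part the spots. Spots of a probe are repeat reads of the same RNA, so they say nothing of how mice vary. The log2 difference was 0.87 with an error of 0.20, a fold of 1.82.

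The second Myc probe, which starts 99 bases from the first, had signals of 2471 and 4733, which is 0.99 in log2 (error 0.20). The third, which starts 591 bases from the first, was dimmer. It had 422 and 482, which is 0.24 in log2 (error 0.20). All 3 probes were thus higher on the PAD4-deficient array, but the third was not 1.5-fold different. The gap between the first and the third was 0.63. Among 5881 genes with at least 2 measured probes, the differences of the 2 brightest probes lay a median of 0.13 apart, and the 90th percentile of that gap was 0.40. Exon and UTR annotation of the mm8 build was not used here, so which part of the Myc transcript each probe reads is not stated.

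Only 1.45% of all genes had a difference as high as that of the brightest Myc probe. Differences past 1.5-fold were more frequent among dim genes. With the measured genes split by signal into 4 classes of equal size, 7.21% of the dimmest class passed 1.5-fold upwards, against 0.282% of the brightest, to which Myc belongs. Within that class 0.188% of genes had a difference as high as that of Myc.

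Mycn encodes N-MYC, the family member that stem cells use beside MYC. Its brighter probe (mm8 chromosome 12, 12962373 to 12962432) had 1549 in wild-type and 2359 in PAD4-deficient cells, or 0.66 in log2 (scanner error 0.20). Its dimmer probe had 73.3 and 101, which is 0.52 in log2 (error 0.22). Both probes were higher on the PAD4-deficient array, and the dimmer one was just short of 1.5-fold. Of all genes, 2.41% had a difference as high as that of the brighter probe, and 0.729% within its own signal class.

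Mycl1, which encodes L-MYC, a family member linked to dendritic cells, was close to the limit of measurement. Its single probe (mm8 chromosome 4, 122504608 to 122504667) had 30.8 in wild-type and 68.7 in PAD4-deficient cells. The lowest signals well above background were 17.7 and 18.5. The log2 difference was 1.21 with an error of 0.30, the only 2-fold difference in the network, against 1.01% of all genes at least 2-fold higher. With normexp background correction it was 0.47 with an offset of 50, below 1.5-fold, and 0.87 without the offset. In its signal class, the dimmest, 98.5% of genes had a difference as low or lower.

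Max encodes the partner that activators and antagonists share. Its probe (mm8 chromosome 12, 77856136 to 77856195) had 14094 in wild-type and 13234 in PAD4-deficient cells, or -0.04 in log2 (scanner error 0.20). The difference of Myc exceeded that of Max by 0.91, and that of Mycn by 0.70.

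The MXD genes encode small repressors that replace MYC at MAX as cells stop dividing. Mxd1 (brightest probe mm8 chromosome 6, 86612830 to 86612889) had 2813 in wild-type and 2464 in PAD4-deficient cells, which is -0.14 in log2 (error 0.20). Its dimmer probe had 163 and 123, and -0.35 (error 0.21). Both Mxd1 probes were lower, and the dimmer one by more than its error.

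Mxi1, an MXD family member named for its binding to MAX, had a single probe (mm8 chromosome 19, 53425818 to 53425877) with 1602 and 1462, which is -0.08 in log2 (error 0.20). A further probe, named in the files by an accession and described there as Max interacting protein 1, had 23.5 and 21.0 and a difference of -0.11 (error 0.43). Neither differed beyond its error.

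Mxd3, the MXD gene that is expressed in dividing rather than resting cells, had 683 and 593 at its brightest probe, which covers mm8 chromosome 13, 55335514 to 55335687. The log2 difference there was -0.15 (error 0.20), and the other probe had 0.01, so the sign rested on 1 of the 2 probes.

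Mxd4 and Mnt lay furthest below 0 by their brightest probes, closer to each other than their errors. The brightest Mxd4 probe (mm8 chromosome 5, 34491044 to 34491103) had 5548 in wild-type and 4477 in PAD4-deficient cells, which is -0.26 in log2 (error 0.20). The 2 dimmer probes had -0.11 each, so all 3 were lower, but only the brightest by more than its error. In its signal class, the brightest, 6.70% of genes had a difference as low.

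Mnt encodes the antagonist that is present in dividing and resting cells alike. Its probe (mm8 chromosome 11, 74661608 to 74661667) had 15129 in wild-type and 12275 in PAD4-deficient cells, which is -0.25 in log2 (error 0.20). Of the genes in its signal class, 7.28% had a difference as low.

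Mga encodes a large MAX partner with a T-box domain that takes part in a Polycomb complex. It was the antagonist on the other side of 0. Its brightest probe (mm8 chromosome 2, 119656257 to 119656316) had 1833 and 2048, which is 0.21 in log2 (error 0.20), and the others had 0.12 and 0.11. All 3 Mga probes were higher on the PAD4-deficient array, none by 1.5-fold.

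**Figure D2:**
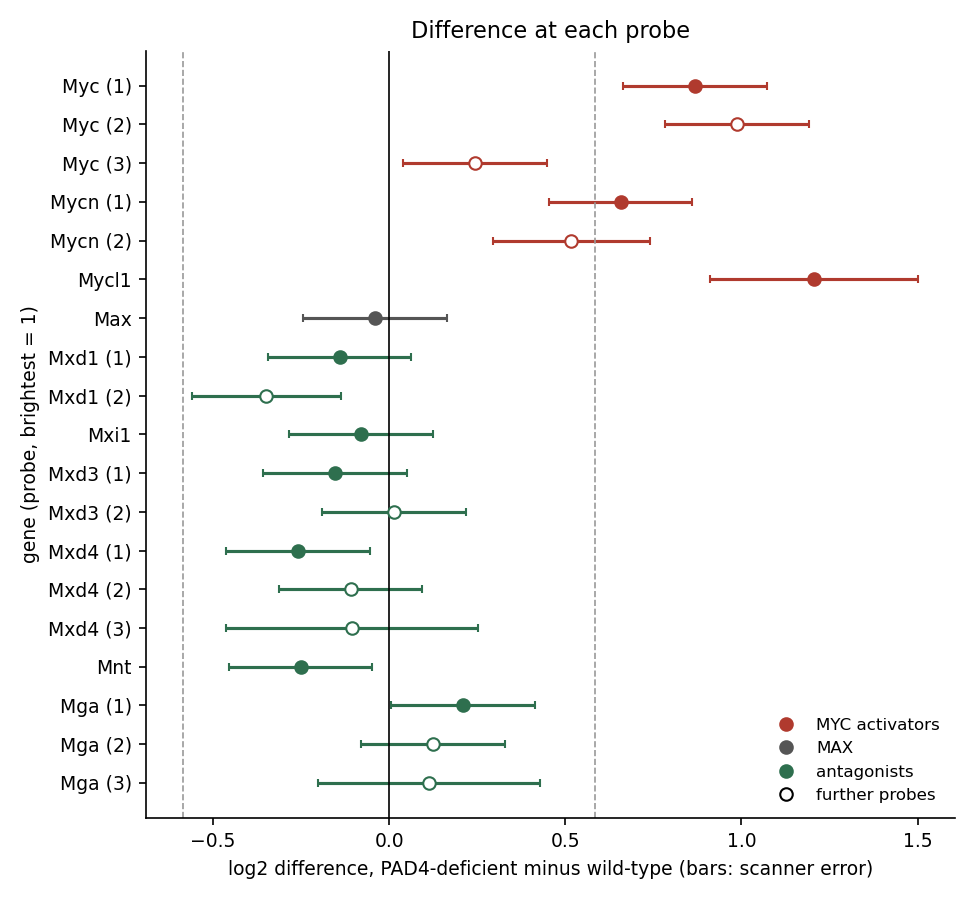
Log2 difference of every probe, PAD4-deficient minus wild-type, with the scanner error as bars; filled points are the brightest probe of each gene, open points further probes, and dashed lines mark 1.5-fold. The 6 activator probes lie between 0.24 and 1.21, and the 12 antagonist probes between -0.35 and 0.21.

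The balance of activators against antagonists was set between differences, because levels of different probes cannot be compared on an array. The activators had a mean difference of 0.91 (error 0.14, 3 genes) and the antagonists -0.11 (error 0.08, 6 genes). The activators thus stood 1.02 above the antagonists on the log2 scale, a 2.03-fold change of the ratio, with a scanner error of 0.16. In all 18 pairs of an activator with an antagonist the activator had the higher difference. The pairs are not separate observations, since this follows from the lowest activator lying above the highest antagonist. The closest pair, Mycn and Mga, was 0.45 apart, and the widest, Mycl1 and Mxd4, 1.47. The dim Mycl1 adds to this mean. With Myc and Mycn against the MXD genes alone, the balance was 0.92. With normexp background correction and an offset of 50 it was 0.76.

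Most of that balance came from the activators. Their mean lay 0.91 from 0, and that of the antagonists 0.11, of which 3 of 6 were within their own scanner error. Over all genes, 69.9% were within it.

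**Figure D3:**
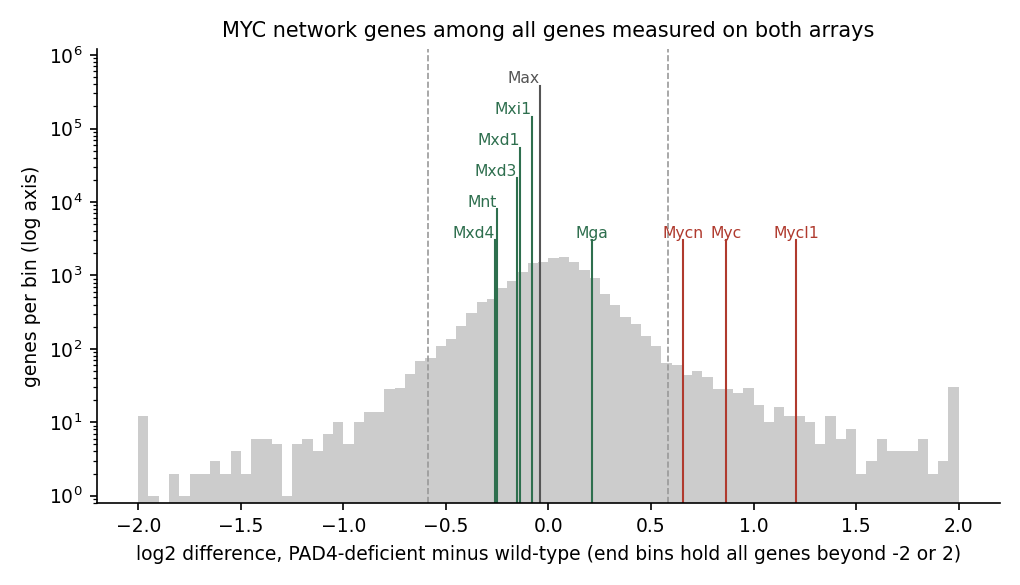
Number of genes (log axis) by log2 difference, PAD4-deficient minus wild-type, for the 17022 genes measured on both arrays, with the brightest probe of each network gene as a line and dashed lines at 1.5-fold. Myc, Mycn and Mycl1 lie beyond the upper dashed line, where 2.88% of all genes lie, and the other 7 members lie between the dashed lines.

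Markers of committed blood cells were mostly higher on the PAD4-deficient array, where 55% of all genes lay above 0, 2.88% passed 1.5-fold upwards and 1.01% passed 2-fold. All 11 monocyte and dendritic cell markers were above 0, with a median of 1.07, 8 past 1.5-fold and 6 past 2-fold. All 9 B cell markers were above 0, with a median of 1.01, 6 past 1.5-fold and 5 past 2-fold. Of these 9, 3 lie in the dimmest signal class and 2 in the second dimmest. All 10 measured neutrophil markers were above 0, with a median of 0.56 and 3 past 1.5-fold. Of 10 measured erythroid markers 7 were above 0, and 5 passed 1.5-fold, 4 of them past 2-fold: the blood group genes Ermap (2.52) and Rhd (1.99), the carbonic anhydrase gene Car1 (1.73) and the erythroid factor Klf1 (1.63). The erythroid genes past 1.5-fold lie in the dimmest and second dimmest signal classes, where 7.21% and 3.15% of genes passed 1.5-fold upwards. Alas2 (-0.47), Hba-a1 (-0.22) and Tfr2 (-0.07) were lower. Of 7 mast cell and basophil markers 6 were above 0 and 4 passed 1.5-fold upwards, while Il4 was lower (-0.78). Of 4 measured T and NK cell markers 3 were above 0 and 2 passed 1.5-fold upwards, while Prf1 was lower (-0.60, signals of 42.6 and 27.2). Of these 4, 3 lie in the dimmest signal class, where 7.21% of genes passed 1.5-fold upwards and 3.45% downwards. Cd3g and Ncr1 were not well above background on either array, and Cd3d, Cd8a and the mast cell marker Ms4a2 were so on 1 array only.

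Summed levels, in multiples of the array's 75th percentile, are set mostly by the brightest probes of a list. The PAD4-deficient sum over the wild-type sum was 1.01 for erythroid and 1.23 for monocyte and dendritic cell markers. It was 1.52 for neutrophils, 1.59 for B cells, 1.66 for T and NK cells and 1.69 for mast cells and basophils. The neutrophil sum was 151 and 229, with Mpo at signals of 81966 and 118188. The monocyte and dendritic cell sum was 80.9 and 99.4, with Lyz2 at 52689 and 52969, and the erythroid sum 45.6 and 46.3, with Car2 at 22721 and 21958. The sums were 13.9 and 22.1 for B cells, 3.08 and 5.19 for mast cells and basophils, and 0.433 and 0.720 for T and NK cells. Of 9 markers of the LSK sort and of stem cells 3 were above 0 (sum 182 and 166), and Flt3, a receptor of multipotent progenitors, was past 1.5-fold lower at -0.67. In bulk RNA, more cells of a type and more RNA per cell cannot be told apart, and the part of these cells in the values of Myc, Mycn and Mycl1 was not tested. The cycling list, with Mki67 and Pcna among its members, had 6 of 8 above 0 and none 1.5-fold different (sum 131 and 133). Over all genes, 55% lay above 0 and 4.75% differed by 1.5-fold in either direction.

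The cofactors of the network were nearly level in their medians. The 14 corepressor genes, such as the SIN3 scaffolds and their histone deacetylases, had a median of 0.00 with 7 above and 7 below 0, and none was 1.5-fold different. Of these 14, 10 lie in the brightest signal class, as do 12 of the 16 MYC cofactors below. In that class 0.282% of genes passed 1.5-fold upwards and 0.282% downwards (4.75% over all genes in either direction), so nothing is read from such counts. Sap30, a SIN3 subunit, was the highest at 0.18, and Ing2, a chromatin reader of that complex, the lowest at -0.24, with other Ing2 probes up to 0.22. The 16 coactivators and cofactors of MYC also had a median of 0.00. Ctr9, of the PAF complex, was the highest at 0.22. Kat5, the TIP60 acetyltransferase, was the lowest at -0.53, with signals of 1920 and 1285, short of 1.5-fold.

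The 3 genes of the parallel MLX and MONDO branch, which senses glucose, lay between 0.06 for Mlxipl and 0.11 for Mlx. The 16 genes of MYC protein turnover had a median of 0.05 and none was 1.5-fold different. Only 4.75% of all genes were, in either direction, so nothing is read from that count. Skp2, a ubiquitin ligase subunit that acts on MYC, was the highest at 0.38, and Axin1, a scaffold of MYC degradation, the lowest at -0.49. Transcript levels say nothing of the amount of MYC protein.

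Regulators upstream of Myc held a pair of genes past 1.5-fold, both dim. Of 18 measured, Lef1 and Tcf7 passed 1.5-fold upwards and no gene did so downwards, and the list median was 0.03. Both lie in the dimmest signal class, where 7.21% of genes passed 1.5-fold upwards, against 2.88% of all genes. Lef1, a factor of the Wnt pathway that binds the Myc promoter region, had signals of 76.0 in wild-type and 145 in PAD4-deficient cells, which is 0.98 in log2 (error 0.23), with 1.20 at its other probe. Tcf7, its relative, had 75.4 and 142, a difference of 0.96 (error 0.22), with 0.54 at its other probe. Their relatives Tcf7l1 and Tcf7l2 had -0.41 and -0.22.

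The 45 genes that MYC is known to induce had a median of 0.14, against 0.02 over all genes, with 34 above 0, where 55% of all genes lie. None was 1.5-fold higher, but 34 of the 45 lie in the brightest signal class, where 0.282% of genes passed that fold (2.88% over all), so nothing is read from that count. Of the 45, 15 were higher by more than their scanner error and 2 lower, while over all genes these shares were 16.1% and 14.1%. Rrs1, a ribosome assembly factor, was the highest at 0.39, with signals of 1971 and 2489. Gart, an enzyme of purine synthesis, was the lowest at -0.56 by its brightest probe, while its other probe had 0.17.

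The 14 measured genes that MYC is known to repress had a median of 0.04, with 8 above 0. Cdkn1a, the p21 inhibitor of cell division, was 1.5-fold lower, with 6826 and 4308 and a difference of -0.61 (error 0.20), where 1.87% of all genes and 0.282% of its signal class, the brightest, were as much as 1.5-fold lower. No other member passed 1.5-fold in either direction. Of the 17 listed, Cdkn2b, Cdh2 and Thbs1 were not well above background on both arrays.

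**Figure D4:**
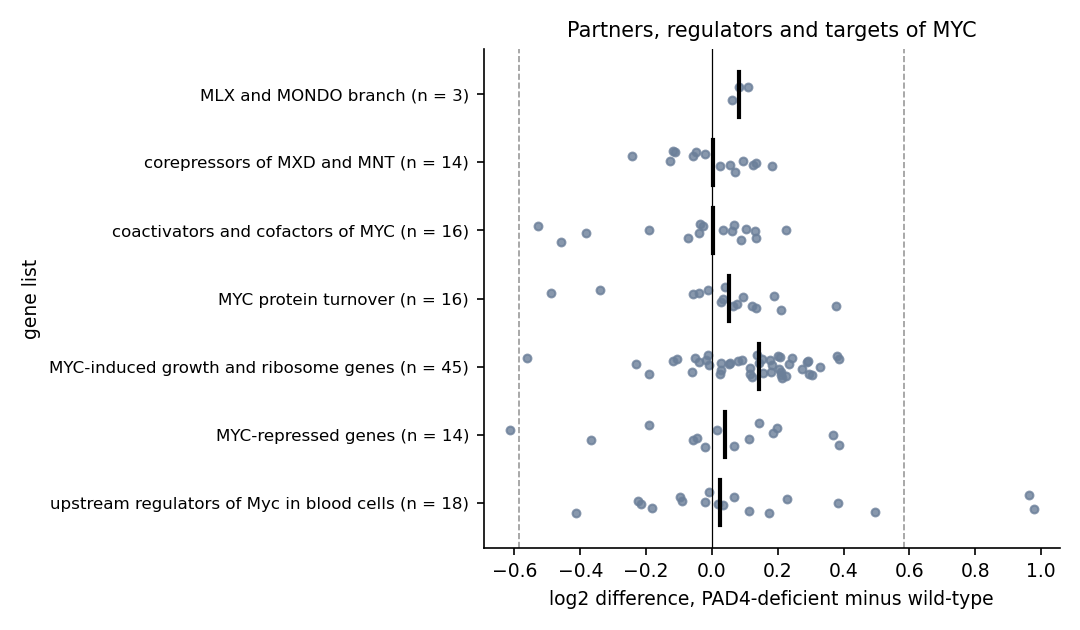
Log2 difference of each measured gene of 7 lists around the network, PAD4-deficient minus wild-type, with the list median as a black bar and dashed lines at 1.5-fold. The median of the MYC-induced genes is 0.14 and the others lie between 0.00 and 0.08; Lef1 and Tcf7 lie past the upper dashed line and Cdkn1a past the lower one.

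The E-box was also read across the promoters of all measured genes. Of the MYC-induced genes with a window, 13 of 39 (33.3%) had CACGTG, against 11.3% of all measured genes with a window. These 13 had a median of 0.20 with 11 above 0, and the 26 without it had 0.12 with 18 above 0. Sites of the highest 3 of the 13 and of the lowest are shown, chosen after their values were seen, with the E-box in capitals. Hspd1 lies at chr1:55088306-55088335 on the minus strand, Ran at chr5:129020026-129020055 on the plus strand, Nme1 at chr11:93968037-93968066 on the minus strand and Cdk4 at chr10:127063512-127063541 on the plus strand, all in GRCm38.p6.
Hspd1: ggccggctgggaCACGTGaaaaggccgcgc
Ran: gctcggccggccCACGTGacccgccgcccc
Nme1: agcttgatacgcCACGTGggctcgcctttg
Cdk4: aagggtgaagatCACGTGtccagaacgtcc
Hspd1, a mitochondrial chaperonin, had a difference of 0.33, Ran, a GTPase of nuclear transport, 0.29, and Nme1, a nucleoside diphosphate kinase, 0.24. Cdk4, a kinase that starts the cell cycle, had -0.04, and its window holds the motif at 4 places.

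Across the array, an E-box in the promoter window did not go with a higher difference. The 1243 measured genes with CACGTG had a median of 0.01 and the 9734 without it 0.02. Of those with the motif 1.93% were at least 1.5-fold higher, and of those without it 2.61%. Genes with the motif were brighter, with a median wild-type signal of 1620 against 1053, so the groups were also set side by side by signal. The medians of the groups lay within 0.02 of each other in each of the 4 signal classes.

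**Figure D5:**
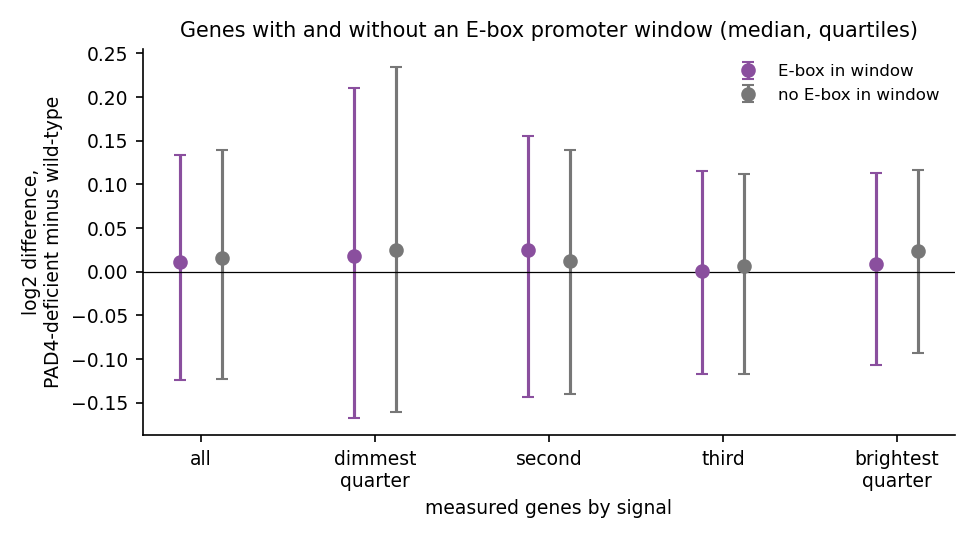
Median log2 difference (points) with the lower and upper quartile (bars) of measured genes with and without CACGTG in the promoter window, for all genes and for 4 classes of signal. The medians are 0.01 and 0.02 over all genes, and the bars of the groups overlap in every class.

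Genes were not ranked by likeness to Myc, since 2 arrays give a single difference per gene.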

How the data were processed

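Both arrays were 1-colour Agilent arrays of design 014868, read with Feature Extraction 9.5.3.1 on build mm8, per the file headers. The submitters' processing notes name Feature Extraction 9.5. The deposited scanner files give spot intensity on a linear scale, background-subtracted and detrended, with an error per spot. A further deposited table holds log2 values. Each column was log2 of the processed signal, taken as the median over the spots of a probe, minus a constant, 9.67 for the wild-type and 9.62 for the PAD4-deficient array, within 0.001 for all 41174 probes. Scale, centring and direction were thus settled, and the column medians were -3.59 and -3.53.

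Here log2 of the processed signal was averaged over the spots of a probe that carry no outlier flag, and the 75th percentile over all non-control probes of the array was subtracted. A probe was measured when well above background on both arrays, and a gene took its brightest measured probe. Probes were named through RefSeq GRCm38.p6, used for names and promoter sequences: 24490 by accession, 6234 by symbol, 2391 by synonym, while 8059 stayed under the files' own name. Errors of several probes or genes were propagated from the spot errors. All members were named. From each gene list, members past 1.5-fold were named, or else the highest and the lowest; others are examples chosen after their values were seen. The members, lists and tests were chosen with earlier results of these data known. The steps were tested on simulated data. Python 3.11.15 was used with numpy 2.4.6, pandas 2.3.3 and statsmodels 0.14.6, and limma 3.58.1 in R 4.3.3 for normexp. The number of arrays limits the precision.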

Additional observations from a re-analysis of the deposited data

How the results depend on the processing

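Of 236 values recomputed under alternatives, 16 moved beyond their error, or beyond 1.5 times for a count. No member past 1.5-fold changed sign, nor did the balance. Some values could not move, since looser signal filters left the members as they were and a constant scale does not alter the balance. No paired analysis was possible because a single array stood for a genotype, and no replicate could be left out. Myc lay between 0.70 and 0.88 and Mycn between 0.59 and 0.67 under all 10 settings. Mycl1 was 0.47 with normexp and an offset of 50, and 0.87 with normexp and no offset. The balance was 0.76 with normexp and an offset of 50. The offset by its construction draws dim probes towards 0. The antagonists other than Mga stayed below 0 and Mga above 0 in each setting, none past 1.5-fold. The 2-fold counts over all genes, 172 higher and 81 lower, became 67 and 24 with normexp and an offset of 50, 490 and 318 at 1.5-fold, 505 and 306 with probes that either array measured, and 1087 and 615 with no filter, which adds dim probes. The median of the MYC-induced genes was 0.087 with median scaling, which moved all genes by -0.06 alike. With that scaling 3 list genes were 1.5-fold lower, not 1. At 2-fold no list gene was higher (0) or lower (0). The E-box genes lay -0.021 from the others with no filter on signal; the cause was not tested. Signal over background limits Mycl1 and the dimmer probes of Mycn, Mxd1, Mxd4 and Mga.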

Other observations

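Bmyc, a short relative of Myc that is not a member of the network as listed, read 2615 in wild-type and 2930 in PAD4-deficient cells, or 0.21 in log2 (scanner error 0.20).

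Probes of a gene disagreed in a few of the genes around the network, chosen here after their values were seen. Sin3b, a corepressor scaffold, differed by -0.05 in log2 where it was brightest and by -1.40 at a dimmer probe. Fubp1, which binds a sequence element upstream of Myc, differed by 0.50 in log2 where it was brightest and by -0.10 at a dimmer probe. Tgfbr2 differed by -0.05 in log2 where it was brightest and by -0.73 at a dimmer probe. Zbtb17, which encodes the MYC partner MIZ1, had a single probe, at 7593 in wild-type and 5343 in PAD4-deficient cells, which is -0.46 in log2 (error 0.20). Of the 61 genes with at least 2 measured probes and a brightest probe at least 1.5-fold higher, the next probe was above 0 in 53 and at least 1.5-fold higher in 33. The median of their brightest probes was 0.87 and that of their dimmest probes 0.54.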
